A study of Mus musculus with 4 samples.

Results

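Embryonic globins and erythroid genes were examined in neurospheres, balls of neural progenitor cells that grow in suspension. The group held 9 genes: the beta-like embryonic globins Hbb-y and Hbb-bh1, the alpha-like embryonic globin Hba-x, the transcription factors Klf1 and Gata1, and Alas2, Slc4a1, Epor and Tfrc. They were taken from 18194 genes with a probe set of 1 symbol, as all probe sets whose platform annotation gives exactly 1 gene symbol, equal to one of these names. This found 23 probe sets, 20 of the 22690 on the Affymetrix MOE430A array and 3 of the 22575 on the MOE430B array. The genes were chosen by their annotation as globin and erythroid genes and selected on the signals and knockout over wild-type ratios of these same arrays, so all values below are a description.

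The spheres came from the ventral telencephalon (the floor of the forebrain) of mouse embryos at E12.5, mid-gestation. One RNA was from wild-type spheres and the other from spheres labelled as knockout of E2f4, a transcription factor of the E2F family. Each RNA was hybridised to 1 MOE430A and 1 MOE430B array, which makes 4 arrays. Strain, E2f4 allele, number of embryos and time in culture were not given in the sources used here. With 1 RNA sample per genotype, there is no test, no error across samples and no way to tell a difference between the genotypes from a difference between 2 cultures.

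Embryonic globins are made by primitive red cells, the nucleated cells that leave the yolk sac and fill the embryonic circulation before adult globins take over in the fetal liver. GATA1 and KLF1 are the main transcription factors of the erythroid lineage. They bind GATA and CACCC sequences and drive globin, haem and membrane genes. Mice without E2F4 are known to be anaemic as fetuses, with defective red cell maturation, which gives these genes an interest in this series beyond the brain.

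Upstream sequences are shown for both embryonic globins whose start sites were in the sequence table and for Klf1. These 3 genes were picked with their lower ratios in the knockout spheres known. Whether KLF1 has a part in the globin ratios was not tested. Of the 9 genes, 7 had a window in RefSeq's table on GRCm38.p6. Each line gives the 120 bases before the start site, 5′ to 3′ on the gene's strand. Capitals mark matches on either strand to the GATA words (GATA with A or T before it and A or G after it), to CACCC, to CCAAT and to the TATA-like word ATAAA. The E2F words TTCCCGC and TTGGCGC were also searched and are in none of the 3 windows.
Hbb-y, chr7:103853208-103853327, minus strand: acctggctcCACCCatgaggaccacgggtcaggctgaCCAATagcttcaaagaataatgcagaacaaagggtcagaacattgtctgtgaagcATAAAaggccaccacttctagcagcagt
Hba-x, chr11:32276480-32276599, plus strand: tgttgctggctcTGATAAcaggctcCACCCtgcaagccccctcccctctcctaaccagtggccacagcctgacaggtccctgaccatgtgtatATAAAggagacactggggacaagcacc
Klf1, chr8:84901862-84901981, plus strand: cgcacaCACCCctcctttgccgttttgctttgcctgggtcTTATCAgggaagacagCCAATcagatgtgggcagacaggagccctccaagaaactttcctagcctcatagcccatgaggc

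In Hbb-y the CACCC match starts 111 bases before the start site, CCAAT 83 and ATAAA 28 bases before it. In Hba-x the GATA match starts 108 bases before the start, CACCC 95 and ATAAA 27 bases before it. In Klf1 a CACCC match starts 114 bases, a GATA match 80 bases and CCAAT 64 bases before the start. Over the whole 250 bases upstream, CACCC was found in 7 of 7 genes and in 52.0% of 32851 promoter windows. A GATA word was found in 5 of 7 genes and in 26.5% of windows, CCAAT in 3 of 7 and in 33.8%, and ATAAA in 3 of 7 and in 37.3%. In Hbb-y and in Alas2 the GATA match overlaps a match to ATAAA on either strand. An E2F word was found in Tfrc, in 1 of its 2 windows, and in 5.62% of all windows. A gene counts once if any of its windows matches, with 8 windows for the 7 genes, while the shares are per window. These are unlike units, the words were chosen with earlier results of these data known, and no enrichment was tested. All are matches of letters in a fixed window and show no binding.

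The values are MAS5 signals, a linear measure of brightness per probe set in arbitrary units that the authors scaled per array. Levels of different probe sets depend on how well each probe binds, so their signals are not ranked as amounts of RNA. Sums over a marker list are given as a description only, since bright probe sets weigh most in them. A probe set is called measured here if neither array fell under a floor, set at the median signal of its design, 736 on MOE430A and 942 on MOE430B. The log2 ratio, knockout over wild type, was centred on the median of its design, and measured probe sets of 1 gene were averaged. This left 10171 genes measured. Both genotypes had like median signals, 735 and 736 on MOE430A and 941 and 942 on MOE430B. The same day served both arrays of a design. The neural identity of the samples was visible in Sox2 and Nes, progenitor genes with mean signals of 7530 and 7052 in wild-type spheres and 7720 and 7392 in the knockout spheres. E2f4 itself read 1812 in wild-type spheres against 1535 in those labelled knockout, a log2 ratio of -0.24. Whether its probe set lies inside the deleted part was not stated in any source used here, so the signal cannot check the label.

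Of the 9 genes, 6 were measured, and 5 of these 6 were lower in the knockout spheres, where 50.2% of all genes measured, and 50% of measured MOE430A probe sets, were lower. The count was 4 of 6 with the brightest probe set of each gene, where Tfrc changed sign and 51.1% of all genes were lower. The median log2 ratio was -0.30 over the 6 genes and -0.001 over all genes measured. The 3 embryonic globins had the lowest values of the 6, and Epor was the 1 gene higher. None of the 6 was at least 2-fold different in either direction, a size that 0.482% of all genes measured reached on the lower side and 0.531% on the higher side. All measured probe sets of the 6 were on MOE430A, where log2 ratios had an SD of 0.29, against 0.43 on MOE430B. On MOE430A alone 0.14% of genes were at least 2-fold lower, against 1.03% on MOE430B alone. Places and shares among all genes measured pool both designs. Gata1, Alas2 and Slc4a1 were below the floor in both samples and gave signals only. In bulk RNA, fewer cells of a type and less of the RNA per cell cannot be told apart.

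**Figure D1:**
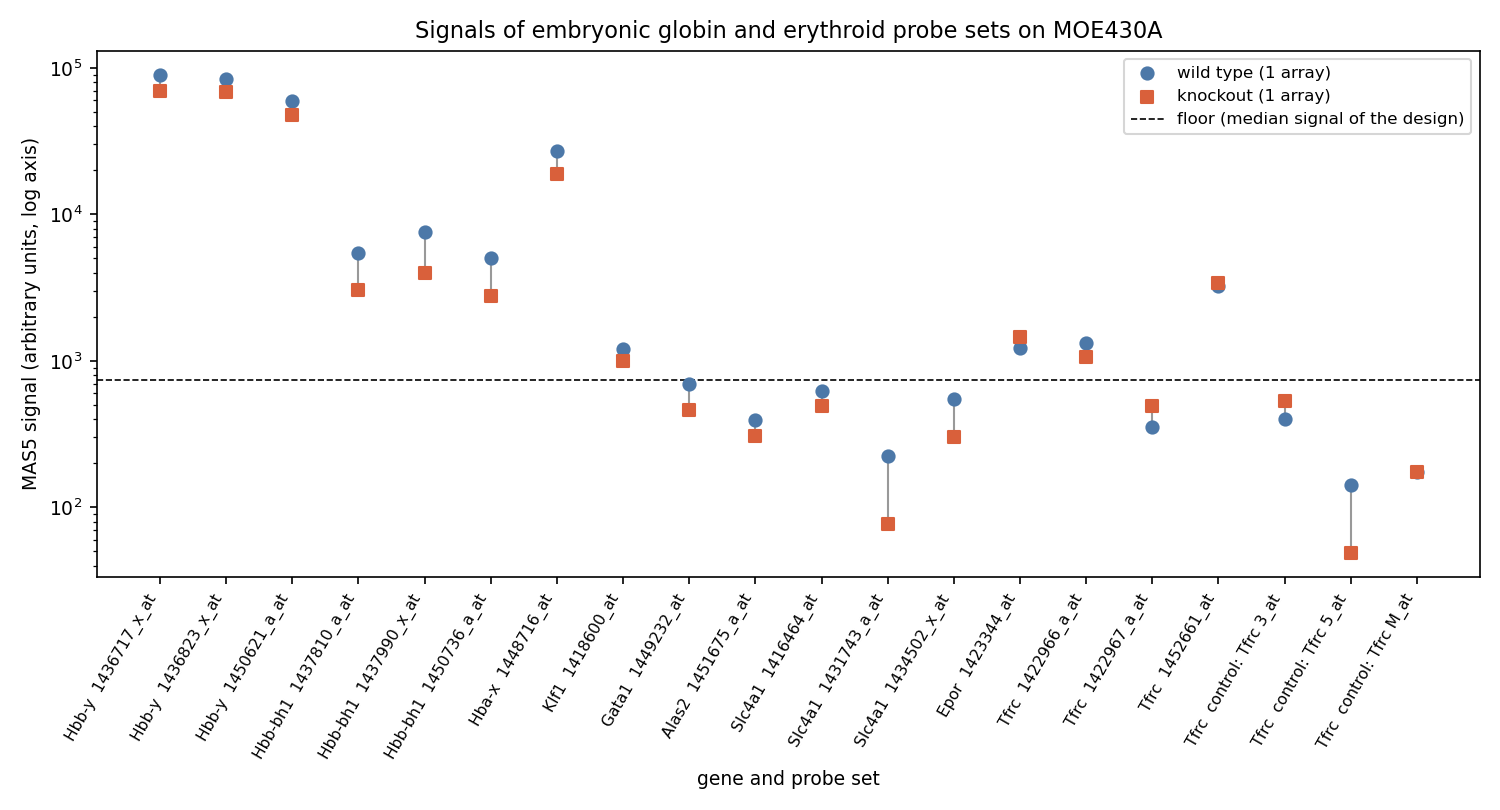
MAS5 signal (arbitrary units, log axis) of each globin and erythroid probe set on MOE430A, with a circle for the wild-type array, a square for the knockout array and a dashed line at the floor of 736. All 7 probe sets of Hbb-y, Hbb-bh1 and Hba-x lie above the floor with wild-type spheres higher. They run from 3.74 times the floor for Hbb-bh1 in the knockout to 122 times for Hbb-y in wild type. Gata1, Alas2 and Slc4a1 lie below the floor. Heights of different probe sets are not comparable amounts of RNA.

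Hbb-bh1, the beta-like globin made earliest in primitive red cells, differed most between the samples. Its 3 probe sets read 5454, 7600 and 5001 in wild-type spheres and 3048, 3954 and 2754 in the knockout spheres, in the same order. The knockout signal was the lower one on each of them. The log2 ratios ran from -0.94 to -0.84, with a mean of -0.88 ± 0.05 (SD over 3 probe sets of the same 2 RNAs), or 1.84-fold lower. That SD is the spread between probes, not between cultures. Among all 10171 genes measured, Hbb-bh1 held place 85 from the lowest ratio, with 0.836% of genes at or below it.

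Hbb-y, the other beta-like embryonic globin and a neighbour of Hbb-bh1 in the beta-globin cluster, read 89828, 84189 and 59541 in wild-type spheres. The same 3 probe sets read 69939, 68394 and 47498 in the knockout spheres. The signals stood between 64.6 and 122 times over the floor, and wild-type spheres was again higher on each probe set. The mean log2 ratio was -0.33 ± 0.03 (SD over 3 probe sets), or 1.25-fold lower, with a range from -0.36 to -0.30. It held place 1347 of the 10171 genes from the lowest ratio, and 13.2% of genes were at or below it.

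Hba-x, the zeta globin that pairs with the beta-like chains in embryonic haemoglobin, was read by 1 probe set, at 27119 in wild-type spheres and 18976 in the knockout spheres. Its log2 ratio was -0.51, or 1.43-fold lower, at place 539 from the lowest. It rests on a single probe set, but one whose name carries no mark of shared probes.

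On these 2 arrays the log2 ratios of the globins were not equal. The ratio of Hbb-bh1 was below that of Hbb-y by 0.55 on the log2 scale, a 1.47-fold difference. Their probe sets did not overlap, with 0.48 between the nearest of them. Over 3956 genes with several measured probe sets, the pooled SD between probe sets of 1 gene was 0.33. Whether the distance between the 2 globins exceeds such differences between probes was not tested. Hba-x lay 0.37 above Hbb-bh1 and 0.19 below Hbb-y. Repeat arrays gave an SD of 0.31 for the difference of 2 single ratios. The gap of 0.19 is under that SD and the gap of 0.37 is close to it. The signals of the 3 genes also differ. Mean signals in wild-type spheres were 6018 for Hbb-bh1, 27119 for Hba-x and 77853 for Hbb-y. The gene with the dimmest probe sets thus had the lowest ratio and the one with the brightest the highest. Whether ratios shrink at the highest signals was not tested. All 7 probe sets were on the same 2 arrays, so a common scaling factor moves them together and leaves these distances as they are. Under quantile normalization and lowess the order of the 3 genes was also Hbb-bh1, Hba-x, Hbb-y. There is no second culture of either genotype against which to test the differences.

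**Figure D2:**
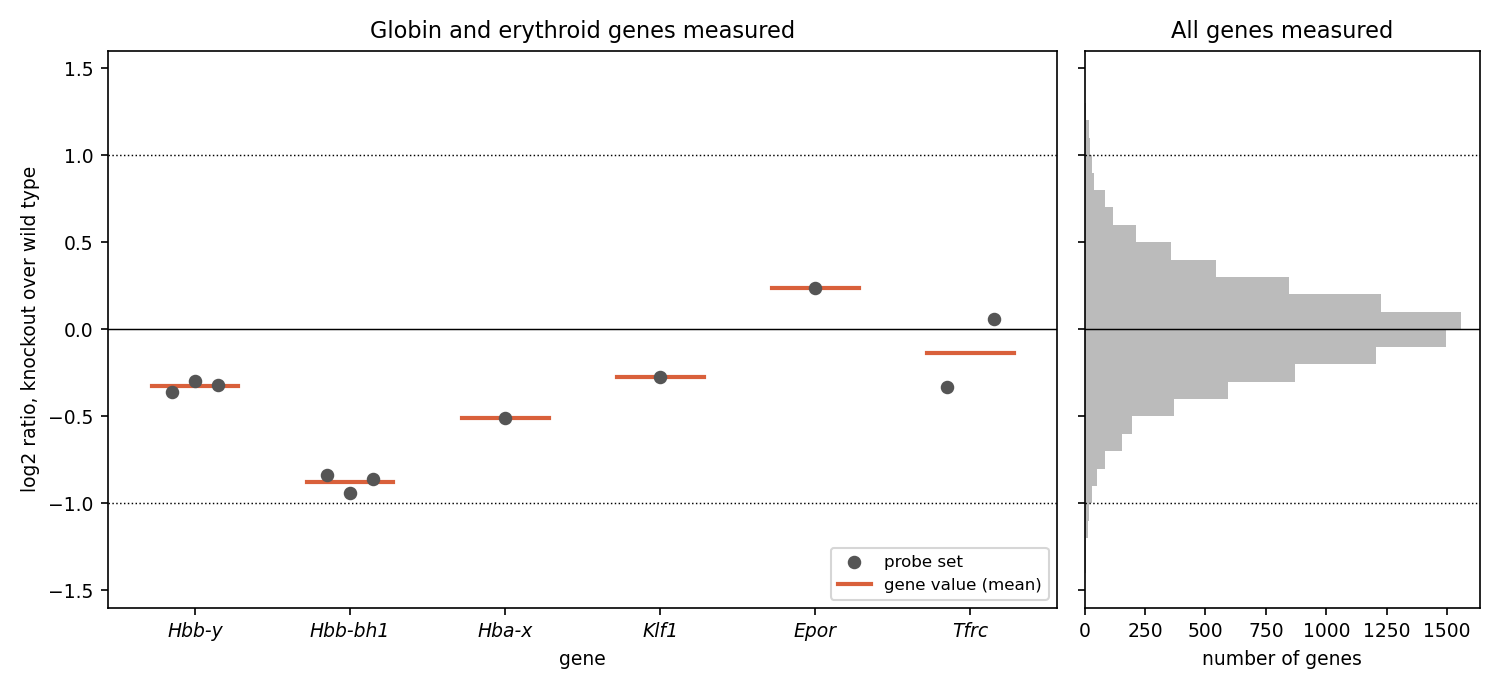
Log2 ratio of knockout over wild type for the 6 measured globin and erythroid genes (left; points are probe sets, bars gene means) and for all 10171 measured genes (right, number of genes per bin; 4 genes lie beyond the axis). The 3 Hbb-bh1 probe sets sit at -0.94 to -0.84, apart from those of Hbb-y at -0.36 to -0.30, and no gene of the 6 crosses the dotted 2-fold lines.

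The error of a single ratio can be gauged from repeats within the series, though not across cultures. The designs share 100 probe sets, and for 99 of these the ratio could be taken on both arrays from the same RNAs. Of all MOE430A probe sets other than controls, 10399 of 22626 were measured, so the shared ones are not typical. The 2 log2 ratios differed with an SD of 0.31, which corresponds to 0.22 for 1 ratio. This covers repeat arrays of the same RNAs and says nothing of the spread between cultures. It may not hold for probe sets near the floor, such as those of Klf1 and Epor. Over all measured MOE430A probe sets the SD of the log2 ratio was 0.29, and sets of bright ones, chosen after the values were seen, had lower SDs. Among 2451 other measured MOE430A probe sets at least as bright as the dimmest of Hbb-bh1, the SD of the log2 ratio was 0.22, and 6 were at or below the highest Hbb-bh1 ratio of -0.84. They included probe sets of Snrnp27, Bcl2l1, Atp13a2 and Atox1, between -1.10 and -0.87, and 1 probe set with 2 symbols at -0.92. The lowest was a probe set of Xist, the RNA that coats the inactive X chromosome of female cells, at 8980 in wild-type spheres and 1178 in the knockout spheres, a ratio of -2.93 on the log2 scale. The sex of the embryos was not stated in any source used here, and the part of such a difference between the cultures in the globin ratios was not tested. Among 283 as bright as Hba-x the SD was 0.14, and 1 was at or below -0.51, a probe set of Gdi2. Among 72 as bright as Hbb-y the SD was 0.12, and 2 were at or below -0.30. One of those 2 was a probe set of Nnat, an imprinted brain gene, and the other a probe set shared by both adult alpha globins.

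Adult globins replace the embryonic ones as fetal liver red cells enter the blood. Of 8 genes on that list, 3 had a probe set of their own and 1 was measured. Hba-a2 read 4093 in wild-type spheres and 3647 in the knockout spheres, a log2 ratio of -0.16. Hba-a1 read 512 and 118 and both probe sets of Hbb-b2 were at or below 303, all below the floor. A further 4 probe sets carry several adult globin symbols, 3 for alpha and 1 for beta, and cannot be given to 1 gene. The beta one read 31795 in wild-type spheres and 25912 in the knockout spheres, a log2 ratio of -0.29. The alpha ones read 134679, 54479 and 1992 in wild-type spheres and 109006, 53268 and 1432 in the knockout spheres, at -0.30, -0.03 and -0.47. All 4 were lower in the knockout spheres, 1 of them only at -0.03, as was each probe set of the embryonic globins. Of all measured MOE430A probe sets, 50% were lower. Globin probe sets read on the same 2 arrays are not separate observations. Globin sequences resemble each other, and all probe sets of Hbb-y and Hbb-bh1 have names ending in _x_at or _a_at, of which _x_at marks probes that can match other transcripts. How much of their signal came from other globins was not tested.

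Klf1, which switches on adult beta-globin and many other red cell genes, was read by 1 probe set at 1207 in wild-type spheres and 995 in the knockout spheres. Its log2 ratio was -0.28, close to the SD of 0.22 for 1 ratio, at signals less than 2-fold over the floor. Of all genes measured, 17.1% were at or below this ratio. Gata1, without which red cells do not mature, read 700 in wild-type spheres and 463 in the knockout spheres, both under the floor of 736. Of 16 other transcription factors that act in erythroid cells, 10 were measured, with a median log2 ratio of 0.09; 3 were lower and 7 higher. Zbtb7a, a repressor of embryonic and fetal globin genes, stood farthest out at 0.97, from 1188 to 2328 on 1 probe set, with 2 further probe sets not measured. Klf3, a repressor related to Klf1, was at 0.60 from 4 probe sets that ranged from 0.11 to 1.23, with 3 further ones not measured. Gata2, a factor of early blood progenitors, was at 0.35 and Foxo3 at -0.24. Myb passed the floor only on the wild-type array, at 857 against 454, and Zfpm1, the GATA1 partner FOG1, in the knockout spheres alone on 1 probe set, at 736 against 505. Tal1 read 380 and 538, Nfe2 404 and 142 and Gfi1b 104 and 80.5 in wild type and knockout, all below the floor. These last 5 genes were named after their values were seen.

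Alas2, the red cell form of the first enzyme of haem synthesis, read 397 in wild-type spheres and 306 in the knockout spheres, under the floor in both. Of 13 other haem genes with a probe set, 9 were measured, with a median of -0.01; 5 were lower and 4 higher. Hmox2, which breaks haem down, was at -0.70, with 1953 in wild-type spheres and 1197 in the knockout spheres. Slc25a38, the mitochondrial carrier that supplies glycine for haem, was at -0.36. Fech, which inserts the iron, was at -0.20 on 1 probe set, with 3 further ones not measured. Uros was at -0.18 from probe sets at -0.41 and 0.05. Many of these enzymes serve every cell that makes haem, so they do not mark red cells.

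Slc4a1, the band 3 anion exchanger of the red cell membrane, had 3 probe sets, all below the floor. They read 622, 225 and 551 in wild-type spheres and 489, 76.5 and 304 in the knockout spheres. The knockout sample was lower on each, but at signals where the ratio is not reliable. Of 21 other membrane and surface genes, 18 had a probe set and 7 were measured, with a median of -0.22; 4 were lower and 3 higher. Dmtn, an actin-bundling protein of the membrane skeleton also found in brain, was at -0.66, with probe sets at -0.86 and -0.47. Cd47 was at -0.38 with probe sets from -0.97 to 0.16. Add1, an adducin, was at -0.27 with probe sets from -0.70 to 0.10, and Ank1, the red cell ankyrin, at 0.39 with probe sets at -0.34 and 1.11. The skeletal protein gene Epb42 read at most 253 and Rhag, of the Rh complex, at most 148. Gypc, a glycophorin, passed the floor only on the knockout array, at 1273 against 395, and was at least 1.73-fold higher. These 3 were named after their values were seen.

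Epor, the receptor that keeps erythroid progenitors alive, was the 1 measured gene of the 6 with a higher signal in the knockout spheres, 1451 against 1232 in wild-type spheres. Its log2 ratio of 0.24 was close to the SD of 0.22 for 1 ratio, and 81.1% of genes measured were at or below it. Of 12 other genes of erythropoietin and Kit signalling with a probe set, 9 were measured, with a median of -0.07; 6 were lower and 3 higher. Pim1, a kinase induced by STAT5, was at -0.63, and Bcl2l1, the survival gene for Bcl-xL, was at -0.56 with probe sets from -1.10 to -0.24. Sh2b3, the adaptor LNK that damps the receptor, was at 0.69 and Kit at 0.25. Socs3, another inhibitor, passed the floor only on the knockout array, at 1379 against 353, and was at least 1.88-fold higher; it was named after its values were seen.

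Tfrc, the transferrin receptor, brings iron into dividing cells of every kind as well as into red cell precursors. Its measured probe sets read 1329 and 3250 in wild-type spheres and 1056 and 3377 in the knockout spheres, and disagreed in direction, at -0.33 and 0.06. The mean was -0.14, and its sign was above 0 in 6 of 11 alternative settings. A further probe set read 355 and 491, below the floor. Tfrc also has 3 control probe sets, placed on both designs by the manufacturer for the 5′ end, the middle and the 3′ end of the transcript. The 3′ one read 404 in wild-type spheres and 535 in the knockout spheres on MOE430A, and 1326 and 1677 on MOE430B, which are log2 ratios of 0.41 and 0.34.

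The other controls show how little a ratio below the floor means. The 5′ one gave -1.53 on MOE430A and 0.40 on MOE430B from the same RNAs, at signals of at most 375. The middle one gave 0.002 and 3.29, with 173 in both samples on MOE430A and 37.9 and 369 on MOE430B. Gata1, Alas2 and Slc4a1 were likewise read below the floor. Of 15 other genes of iron uptake and storage with a probe set, 8 were measured, with a median of -0.15; 7 were lower and 1 higher. Slc25a28, a mitochondrial iron carrier, was at -0.60, Ncoa4, which releases iron from ferritin, at -0.37, Tfr2 at -0.19 and Fth1, the ferritin heavy chain, at -0.15. The iron importer Slc11a2, named after its values were seen, passed the floor only on the wild-type array on 2 probe sets, at 1012 and 958 against 546 and 703.

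Of 15 red cell enzymes and other erythroid genes with a probe set, 8 were measured, with a median of -0.10; 4 were lower and 4 higher. Bpgm, which makes the 2,3-bisphosphoglycerate that loosens oxygen from haemoglobin, was at -0.70 with probe sets at -1.04 and -0.36. Car2, a carbonic anhydrase of red cells and of glia, was at -0.68, with 2038 in wild-type spheres and 1265 in the knockout spheres. Mkrn1 was at -0.31 with probe sets from -0.50 to 0.12, and Cd24a, shared with neural progenitors, was at -0.21. Car1 read 152 and 75.7 and Hemgn 33.5 and 8.99, below the floor in both samples. Trim10 passed the floor only on the knockout array, at 833 against 577, and Pklr only on the wild-type array, at 753 against 679. These 4 were named after their values were seen.

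Markers of other cells that could travel with blood are set beside the globins here. Of 14 genes of leukocytes and microglia 4 were measured, and 8 were below the floor on every probe set in both samples. Their median was -0.20, and the summed signal of the measured ones was 5060 in wild-type spheres and 4522 in the knockout spheres. Laptm5 was at -0.63 on 1 probe set, with 4 further ones not measured. Csf1r was at -0.25 with probe sets from -0.64 to -0.04, Coro1a at -0.16 with probe sets at -0.38 and 0.06, and Cd14 at 0.58. Of 10 genes of megakaryocytes and platelets 4 were measured, with summed signals of 4130 and 4300 and a median of 0.08. Itga2b was at 0.37, Treml1 at -0.28, Gp5 at 0.14 and Gp1bb at 0.01. Of 12 endothelial genes 5 were measured, with summed signals of 6193 and 6160 and a median of -0.13. Egfl7 and Eng were at -0.39, Kdr at 0.38 and Cldn5 at 0.15. Each rests on 1 probe set, with 3 further ones of Egfl7 and 1 of Eng not measured. Flt1, a VEGF receptor, passed the floor only on the knockout MOE430B array on 1 probe set, at 2226 against 244, and was at least 2.36-fold higher; it was named once its value was known. No marker of these lists was at 0, and the part of these cells in the globin ratios was not tested.

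Of the neural list, 13 of 13 genes with a probe set were measured, with a median of -0.04; 7 were lower and 6 higher. The summed signals were 102520 in wild-type spheres and 104801 in the knockout spheres. Dlx5, Gad1 and Dlx2, genes of the ventral telencephalon and of GABA neurons, were at -0.95, -0.53 and -0.52, and Pax6, of dorsal progenitors, at 0.44. Sox2 was at 0.04 and Nes at -0.04. The 2 measured probe sets of Nes disagreed in direction, at -0.26 and 0.18, and 1 further probe set was not measured.

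**Figure D3:**
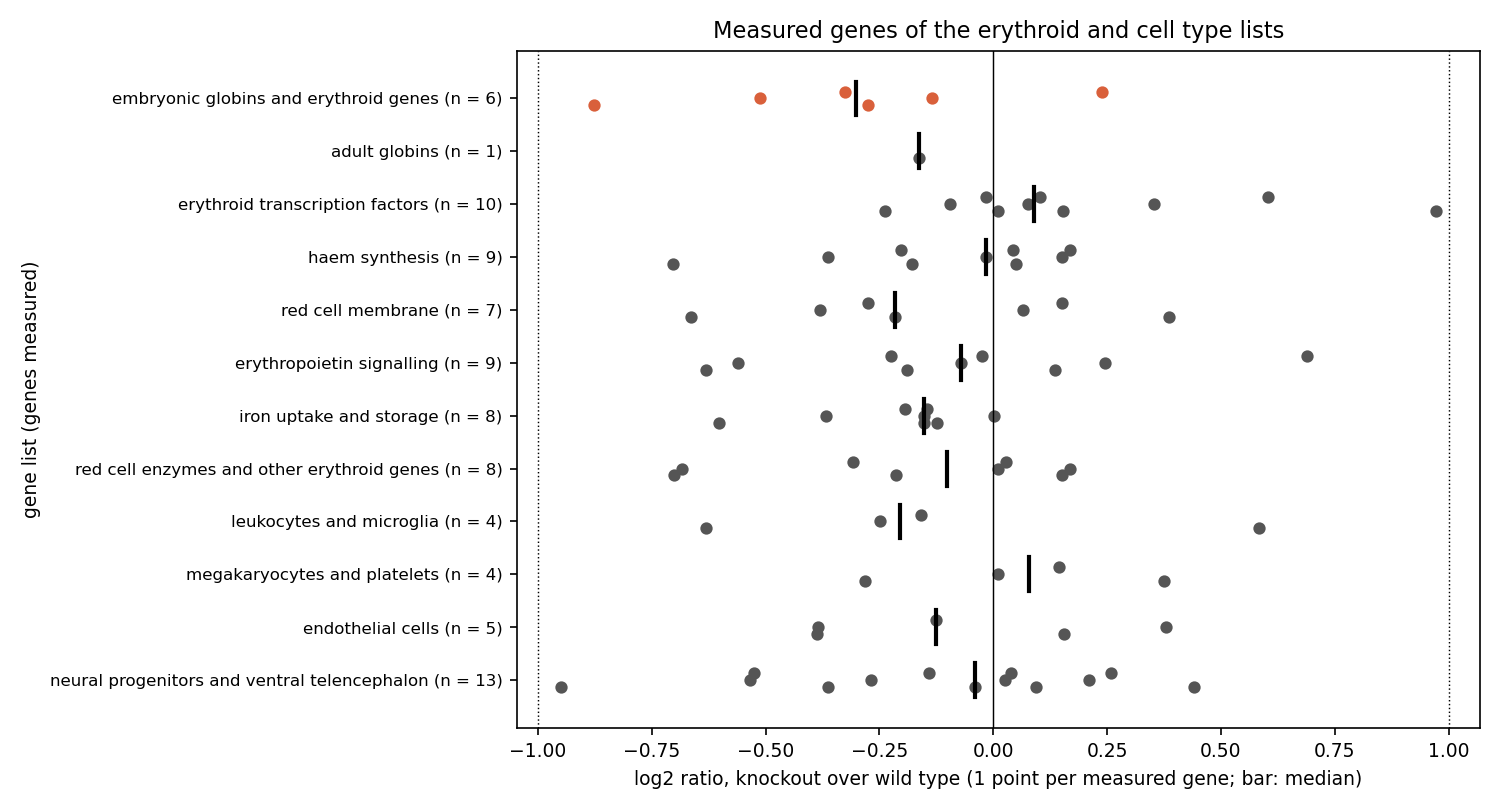
Log2 ratio of knockout over wild type for each measured gene (points) and the list median (bars), by gene list, with dotted lines at 2-fold. The globin and erythroid genes (red) have the median farthest below 0, at -0.30, and the erythroid transcription factors the one farthest above, at 0.09. No gene plotted here reaches 2-fold.

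**Figure D4:**
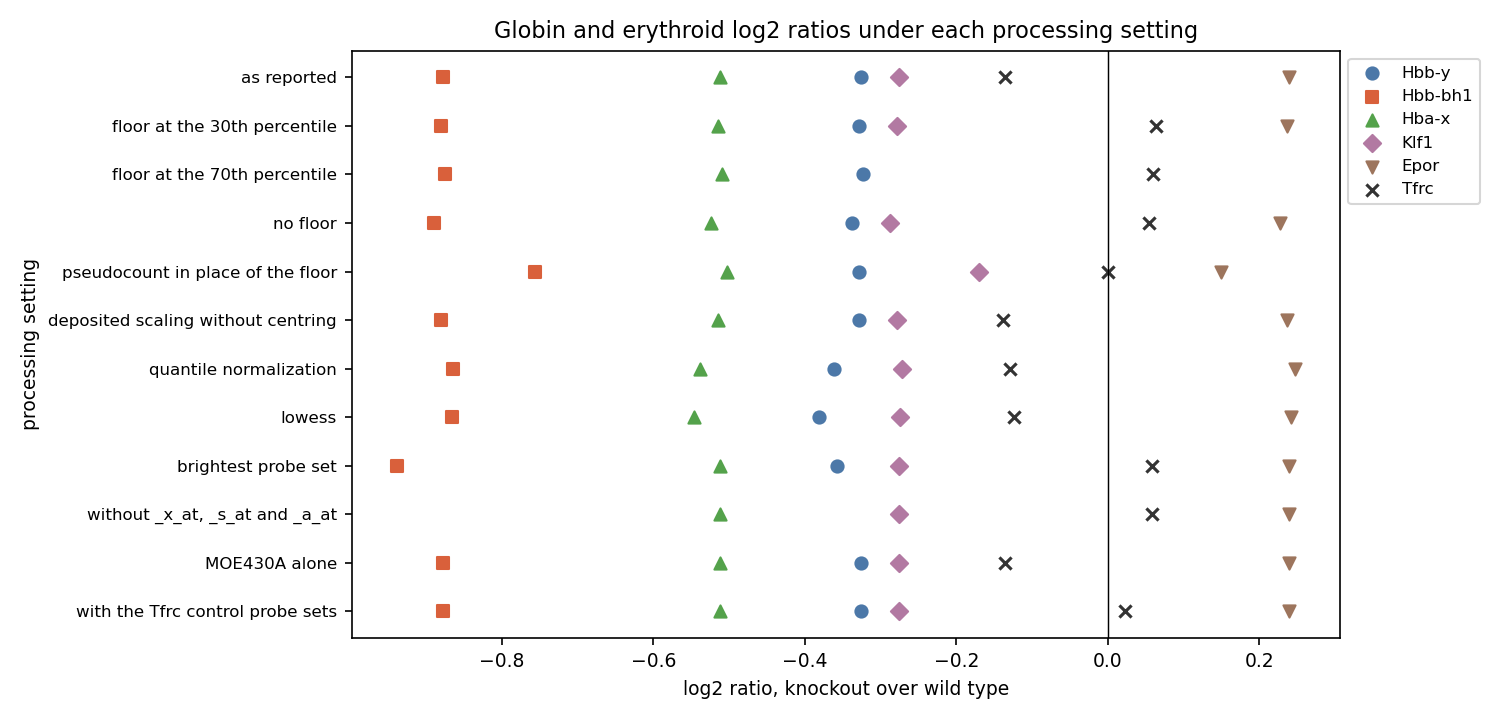
Log2 ratio of knockout over wild type of the 6 measured genes (symbols) under the reported processing and each alternative that gave a value (rows). Hbb-bh1, Hba-x, Hbb-y and Klf1 stay below 0 and Epor above 0 wherever they were measured, while Tfrc falls on both sides.

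The plot of values by processing setting shows how far the choice of floor, scaling and probe sets moves each gene. Hbb-bh1 ranged from -0.94 to -0.76, Hba-x from -0.55 to -0.50, Hbb-y from -0.38 to -0.32, Klf1 from -0.29 to -0.17 and Epor from 0.15 to 0.25. Without probe sets named _x_at, _s_at or _a_at, Hbb-y and Hbb-bh1 had no value, and of the embryonic globins Hba-x alone was left. That setting also drops their _a_at probe sets, at -0.32 for Hbb-y and at -0.84 and -0.86 for Hbb-bh1.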

How the data were processed

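Total RNA was prepared with RNeasy columns and labelled as biotinylated cRNA without amplification, per the labels' protocols. The deposited values are intensities on a linear scale, 1 per probe set and array, made with MAS5 per the submitters' processing notes; no version, scaling target or detection call was used here. The 4 arrays were hybridised on 2 days, 1 day for each design, per the file headers. Names came from the platform annotation of the 2 designs, checked through gene identifiers against RefSeq (GRCm38.p6).

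Ratios of knockout over wild type were taken on the log2 scale within a design and centred on the median of measured probe sets, which moved MOE430A by -0.003 and MOE430B by -0.001. Each design has 64 control probe sets, which entered no gene value. Upstream words were searched in the 250 bases before each RefSeq start site. The procedure was tested on simulated arrays with planted changes of at least 2-fold, larger than that of any measured gene of the group. It was judged by medians over many genes, so it does not gauge a smaller ratio of a single gene or the spread between cultures. The number of arrays limits the precision.

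The genes, lists and rules were chosen with earlier results of these data known. Named were the 9 genes, E2f4, up to 4 measured genes per list with the largest absolute log2 ratio, and Sox2 and Nes; 1 further item of the rule is not reported here. Alternatives were floors at the 30th and 70th percentile, none at all, a pseudocount (the median signal), no centring, quantile normalization, lowess (span 0.3), the brightest of the probe sets, leaving out ambiguous probe sets, and each design alone. Python 3.11.15, numpy 2.4.6, pandas 2.3.3, statsmodels 0.14.6 and matplotlib 3.10.9 were used.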

Additional observations from a re-analysis of the deposited data

How the results depend on the processing

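Values without a test are said to move where they shift by more than 0.22, the SD of 1 log2 ratio. The median log2 ratio of the globin and erythroid genes was below 0 in 11 of 11 alternatives that gave one, from -0.42 to -0.11. Not all of these could differ. MOE430A alone repeats the reported -0.30, since all measured probe sets of the group are on that design. Leaving out the centring moves the median only by the small centring shift. Fewer or more of the 9 genes are measured at other floors. The count of lower genes was 3 of 4 for a floor on the 70th percentile, 8 of 9 once a pseudocount replaced the floor and 2 of 4 without _x_at, _s_at and _a_at probe sets. Of all genes, 50.6%, 49.9% and 51.1% were lower under these settings. The 8 include Tfrc, at -0.0005, and Gata1, Alas2 and Slc4a1, whose signals were below the floor. No gene of the group was 2-fold lower in any alternative, a size that 0.14% to 8.5% of all genes reached, the most without a floor. Counting the Tfrc control probe sets, a choice made after seeing the data, put Tfrc at 0.02. It left 4 of 6 genes lower, where 50.1% of all genes were lower. On MOE430B alone no gene of the group was measured. There the list medians were 0.45 for erythroid transcription factors, 0.28 for haem synthesis, 0.69 for erythropoietin signalling, 0.15 for red cell enzymes and 0.52 for neural genes, from 1 to 4 genes each, and below 0 for red cell membrane genes, at -0.42 from 5 genes, and iron genes, at -0.18 from 2. The endothelial median was 0.38 for the floor on the 70th percentile, from 1 gene, and 0.15 without _x_at, _s_at and _a_at probe sets. The leukocyte median was 0.27 without them, from 2 genes. No paired analysis was possible because there was 1 RNA sample per genotype, and for the same reason no replicate could be left out. Signals near or below the floor limit what Gata1, Alas2 and Slc4a1 can show.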
